A study of Mus musculus with 12 samples.

Results

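The wild-type (WT) common lymphoid progenitor (CLP) transcriptome was described from 4 of the 12 RNA-seq libraries of the series, those whose genotype label reads WT, named WT-6, WT-8, WT-10, and WT-11. The study asked what the long non-coding RNA (lncRNA) locus *Firre* does in mice and compared CLPs of 3 genotypes, namely WT mice, ∆*Firre* mice, and *Firre* rescue mice given doxycycline. The WT animals carried neither the deletion nor the transgene, were male, and were 27 to 32 weeks old, the range given for all 3 genotypes. The ∆*Firre* line was crossed to C57BL/6J, a strain that the study lists among those it used. CLPs were sorted from bone marrow as cells negative for lineage antigens, low for Sca1 and cKit, and positive for IL7Rα, and poly(A)+ RNA was sequenced from each of the 4 mice. No groups were compared: genes were ranked by their mean level and the spread between the 4 libraries was taken as the error.

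CLPs are bone marrow progenitors that give rise to B cells, natural killer cells, innate lymphoid cells, and some T cells and dendritic cells. They depend on signals through the IL-7 receptor and Flt3, begin to rearrange the immunoglobulin heavy-chain locus with the Rag recombinase, and insert untemplated bases at the joints with terminal transferase, the product of *Dntt*. Commitment to B cells runs through the transcription factors Tcf3, Ebf1, and Pax5, whereas Notch1 and Tcf7 belong to the T-cell program. In RNA from a sorted bulk population, fewer cells of a type and less RNA per cell cannot be told apart.

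Levels were read as TPM, a unit in which the reads of a gene are taken per base of its length and the values of a library add up to 1000000, so that genes of unequal length can be compared. The reads behind the values came to 14575994 in WT-6, 10990541 in WT-8, 18175063 in WT-10, and 14184956 in WT-11. A single read on a gene of 1 kb was thus worth between 0.171 and 0.284 TPM, and 3 reads, the limit that a count of 0 allows, between 0.512 and 0.853 TPM. Of the 47643 genes in the table, 14582 (30.6%) had a mean TPM of at least 1, 9636 of at least 10, and 1835 of at least 100. In each library between 15472 (WT-8) and 19877 (WT-6) genes were above 0, and 13958 genes were above 0 in all 4. Of 19723 genes annotated as protein-coding, 57.7% reached a mean TPM of 1, against 17.9% of 1769 annotated lncRNAs.

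WT-6 and WT-8 stood apart from the others in parts of their profile. WT-6 had high levels of basophil genes and almost no transcripts of *S100a8*, *S100a9*, and late neutrophil granule genes such as *Ngp*, and WT-8, the smallest library, had the fewest genes above 0. Most results that rest on either are given with the values or the range of the 4 libraries. Summed levels of gene lists that WT-6 sets are also given without that library.

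The 5 genes that mark CLPs were present in every library. *Il7r* (chr15:9506159-9529941), the receptor chain used in the sort, was at 385 TPM in WT-6, 456 in WT-8, 415 in WT-10, and 441 in WT-11, a mean of 424 ± 31.2 (SD, n = 4). *Flt3* (chr5:147330741-147400489), a cytokine receptor that was not part of the gate, was at 508, 677, 518, and 578 TPM in these libraries, a mean of 570 ± 77.8 (SD, n = 4). These 2 receptors ranked 264th and 181st of all genes, and the highest library exceeded the lowest by 1.18-fold and 1.33-fold. *Kit* (chr5:75574987-75656722), the receptor for stem cell factor, was at 63.1, 82.9, 61.9, and 75.1 TPM and ranked 2712th. *Ly6a*, which encodes the Sca1 protein of the gate, was lower still, at 41.0, 24.1, 35.3, and 37.0 TPM. *Kit* and *Ly6a*, whose proteins were selected as low, had lower transcript levels than *Il7r*, whose protein was selected as positive, in each library. Low and positive staining are set on protein for each antibody, and a relation of this order to the gate was not tested. *Ly6d*, a surface protein of CLPs with B-cell potential, was at 586, 457, 549, and 521 TPM, and *Cd34* and *Cd27*, both progenitor surface proteins, had means of 226 ± 24.2 and 283 ± 26.5 TPM (SD, n = 4). All 14 genes of the list of gate and progenitor markers had a mean TPM of at least 1, and 12 had a mean of at least 100. A mean TPM of at least 1 was reached by 30.6% of all genes and by 57.7% of those annotated as protein-coding. Their median was 236 TPM, beside a median of 21.0 TPM over the 14582 genes at a mean TPM of at least 1.

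**Figure D1:**
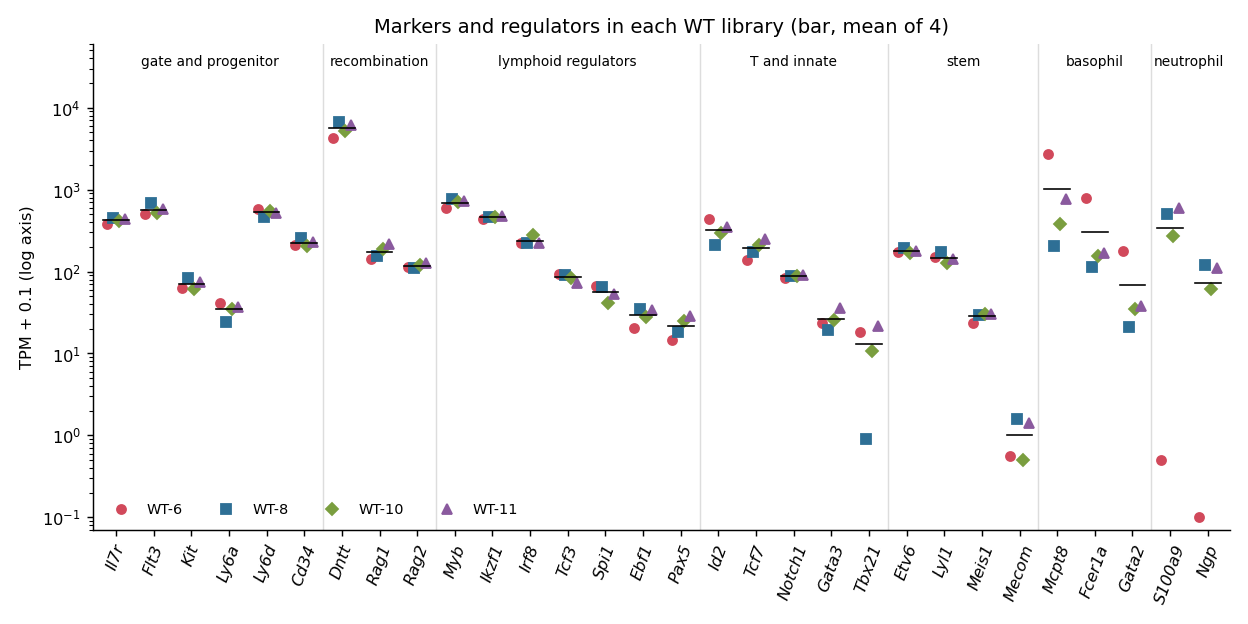
TPM plus 0.1 on a log axis (vertical) of 30 genes (horizontal) in WT-6, WT-8, WT-10, and WT-11, 1 symbol per library, with a bar at the mean of the 4. Gate markers, recombination genes, and most regulators form tight columns, whereas *Mcpt8*, *Fcer1a*, and *Gata2* are highest in WT-6 and *S100a9* and *Ngp* are near or at 0 in that library.

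The most abundant transcripts were mitochondrial, ribosomal, and, among lymphoid genes, those of immunoglobulin loci and terminal transferase. *mt-Atp8*, *mt-Co1*, and *mt-Cytb*, which encode subunits of the respiratory chain and of ATP synthase, led the ranking with means of 38553 ± 4973, 17053 ± 858, and 12963 ± 1513 TPM (SD, n = 4). *Igkc*, the constant region of the immunoglobulin kappa light chain, ranked 4th with 8709 TPM in WT-6, 14169 in WT-8, 10192 in WT-10, and 11967 in WT-11. *Dntt* (chr19:41029275-41059525) ranked 10th of all genes, at 4315, 6725, 5213, and 6185 TPM, above *Actb* and all but 1 of the ribosomal protein genes. *Ighm*, the heavy-chain constant region of IgM, ranked 16th at 4959, 3123, 2970, and 5560 TPM. *Dntt* and *Igkc* were lowest in WT-6 and highest in WT-8, and *Ighm* was highest in WT-11. Also among the first 25 were *Eef1a1*, a translation elongation factor, *B2m*, the light chain of class I histocompatibility molecules, *Ptma*, a small nuclear protein of dividing cells, and *Hsp90ab1*, a chaperone. The rest of the 25 were mitochondrial genes (*mt-Nd1*, *mt-Nd2*, *mt-Nd4*, and *mt-Nd5*) and ribosomal protein genes, from *Rpl4* at 5693 ± 544 TPM to *Rpl17* at 3094 ± 203 TPM (SD, n = 4).

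Of the 100 most abundant genes, 47 were ribosomal protein genes, 12 were mitochondrial, and 3 belonged to immunoglobulin loci, while 5 had no name in the tables used. Among the remaining 33 were *Prss34* (rank 56) and *Mcpt8* (rank 93), both basophil proteases, *Plac8* (rank 61), *Stmn1* (rank 80), a microtubule regulator of dividing cells, and *Jchain* (rank 100), which joins secreted antibody units. Without WT-6, an alternative chosen after seeing the data, *Prss34* had a mean of 865 TPM and rank 111 and *Mcpt8* a mean of 450 TPM and rank 249, both outside the first 100. *Plac8* differed little between the libraries, with a mean of 1402 ± 96.6 TPM (SD, n = 4), whereas *Jchain* was at 619, 1296, 868, and 911 TPM. The 10 most abundant genes of each library took 12.3% ± 0.607 of its TPM and the 100 most abundant 30.4% ± 0.248 (SD, n = 4). Ribosomal protein genes, 84 in number, held 12.4% ± 0.505 of TPM, 37 mitochondrial genes 10.5% ± 0.932, and 112 named immunoglobulin genes 2.23% ± 0.273 (SD, n = 4).

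These shares depend on the division by length. *mt-Atp8* is 204 bases long, overlaps the neighboring *mt-Atp6*, and ranked 12th by its share of reads, while *Dntt*, with between 43656 and 64960 reads in each library, ranked 4th. Counted as reads, mitochondrial genes held 2.88% ± 0.235 and ribosomal protein genes 5.51% ± 0.222 of a library (SD, n = 4).

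**Figure D2:**
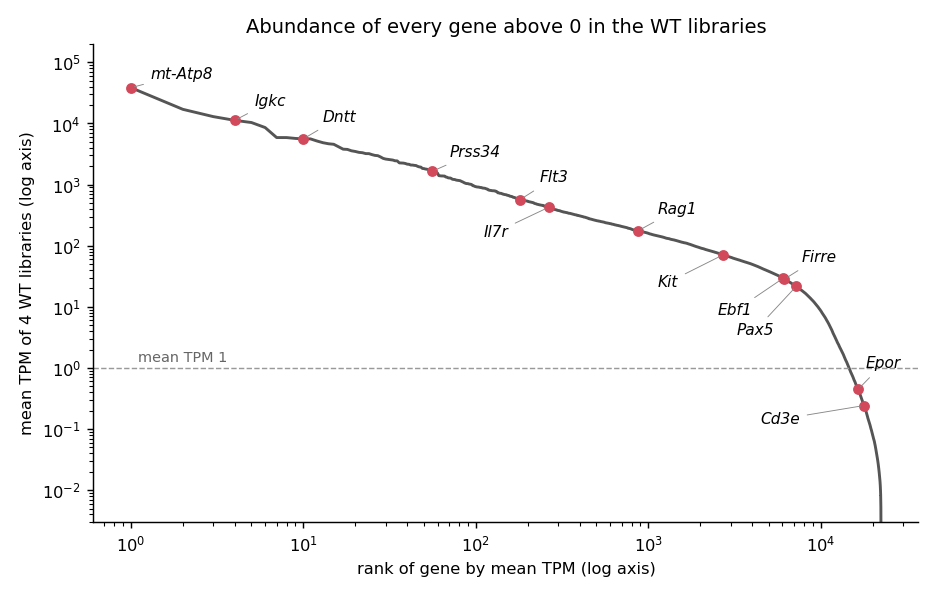
Mean TPM of the 4 WT libraries (vertical, log axis) against the rank of each gene above 0 (horizontal, log axis), with 13 genes marked and a dashed line at a mean TPM of 1. *Igkc* and *Dntt* lie among the 10 most abundant genes, *Flt3* and *Il7r* among the first 300, and *Cd3e* and *Epor* below a mean TPM of 1.

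The other genes of recombination were present at lower levels than *Dntt*. *Rag1* (chr2:101638252-101649532), which cuts DNA at recombination signals, was at 141, 155, 188, and 215 TPM in WT-6, WT-8, WT-10, and WT-11, and its partner *Rag2* was at 115, 110, 120, and 126 TPM. Both were lower than *Dntt* in every library, and *Rag2* had the smaller spread, with a coefficient of variation (CV) of 5.85% against 19.1%. *Hmgb1* and *Hmgb2*, chromatin proteins that assist the Rag complex, had means of 592 ± 47.4 and 873 ± 108 TPM (SD, n = 4). The end-joining genes *Xrcc6* (Ku70) and *Xrcc5* (Ku80) had means of 260 ± 60.0 and 53.6 ± 14.5 TPM, and *Lig4*, *Nhej1*, *Xrcc4*, and *Dclre1c* lay between 9.74 and 13.7 TPM. All 12 genes of the list were thus above a mean TPM of 1, over a range from 9.74 to 5609 TPM.

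Among transcription factors of lymphoid cells, *Myb* and *Ikzf1* were the most abundant of the 20 on the list. *Myb*, a factor of dividing progenitors, was at 604, 759, 703, and 719 TPM, and *Ikzf1* (Ikaros), required for lymphoid development, was at 441, 460, 460, and 473 TPM. The CV of *Ikzf1* was 2.87%, where read counting alone would give 0.913%. *Irf8* and *Mef2c*, shared by lymphoid and dendritic cell programs, had means of 237 and 119 TPM. The E protein gene *Tcf3* was at 93.1, 90.6, 82.7, and 73.1 TPM. The factors that follow it in the B-cell path were lower, *Ebf1* at 20.2, 34.7, 28.1, and 33.6 TPM and *Pax5* at 14.3, 18.3, 24.7, and 28.9 TPM. Both were lowest in WT-6, and neither reached the level of *Tcf3* in any library. *Spi1* (PU.1), used by lymphoid and myeloid cells, was at 67.4, 64.8, 41.4, and 53.0 TPM. All 20 factors had a mean TPM of at least 1, down to *Lef1* at 3.96 ± 0.820 TPM (SD, n = 4), and their summed level ranged only from 1912 TPM in WT-6 to 2147 TPM in WT-8.

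Genes that follow B-cell commitment were present at intermediate levels. *Cd79a* and *Cd79b*, the signaling chains of the B-cell receptor, had means of 88.6 ± 27.6 and 94.5 ± 32.1 TPM (SD, n = 4). The surrogate light-chain genes *Vpreb1* and *Igll1* were at 28.7, 28.4, 46.2, and 60.0 TPM and at 18.4, 41.3, 31.0, and 40.9 TPM. WT-6 was the lowest library for 7 of the 12 genes of the pre-B receptor and early B-cell list, where it was the lowest for 23.3% of all genes at a mean TPM of at least 1, and the list summed to 1033, 1394, 1386, and 1499 TPM. Of 14 genes of mature B cells, 11 (78.6%) had a mean TPM of at least 1. Low members were *Ms4a1* (CD20) at 2.21 ± 1.02 TPM, *Cd22* at 1.34 ± 0.399 TPM, and *Cr2* and *Fcer2a* at means of 0.126 and 0.373 TPM (SD, n = 4). The highest were *Cd74* and the class II genes *H2-Aa*, *H2-Ab1*, and *H2-Eb1*, which dendritic cells also use, with means of 246, 69.4, 61.0, and 63.9 TPM, and *Cd37* and *Cd72*, surface proteins of B cells, with means of 76.7 and 64.4 TPM.

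T-cell and innate lymphoid regulators were also present, all 17 of the list at a mean TPM of at least 1. *Id2*, which restrains E proteins, was at 440, 210, 296, and 351 TPM, and *Tcf7* (TCF1) was at 138, 172, 209, and 249 TPM. *Notch1* hardly differed, at 84.4, 89.2, 87.2, and 89.9 TPM. *Gata3* had a mean of 25.9 ± 6.97 TPM and *Bcl11b*, a gene of T-cell commitment, of 9.17 ± 1.78 TPM (SD, n = 4). *Tbx21* (T-bet), the factor of natural killer and type 1 innate lymphoid cells, varied most in this list, at 18.4 TPM in WT-6, 0.8 in WT-8, 10.6 in WT-10, and 21.8 in WT-11. Of the natural killer genes, *Ncr1* and *Klrk1* had the same order of libraries, *Ncr1* at 216, 67.6, 112, and 288 TPM and *Klrk1* at 54.3, 18.5, 34.7, and 75.8 TPM, and the 11 genes of that list summed to 845, 483, 530, and 943 TPM. WT-8 was the lowest library for 5 of the 11 and WT-10 for another 5, where they were the lowest for 33.7% and 24.7% of all genes at a mean TPM of at least 1. T-cell receptor signaling genes were split. *Lck*, a kinase, had a mean of 132 ± 25.9 TPM and the constant gene *Trbc1* of 242 ± 57.6 TPM, while *Cd3e* had 0.732, 0, 0.238, and 0 TPM and *Cd3d*, *Cd8a*, and *Cd8b1* had means of 1.65, 0.368, and 0.818 TPM.

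Factors of stem and multipotent cells were graded. *Etv6*, *Lyl1*, *Erg*, and *Lmo4* had means between 117 and 179 TPM, *Meis1* and *Hoxa9* 28.3 ± 3.49 and 55.5 ± 6.40 TPM, and *Hlf* 12.8 ± 2.41 TPM (SD, n = 4). *Mecom*, a gene of long-term stem cells, was at 0.457, 1.49, 0.398, and 1.33 TPM and was the only one of 15 below a mean TPM of 1. *Prdm16* stood next at 1.03 ± 0.727 TPM. Proliferation genes were high, with *Mcm6* at 539 ± 78.9, *Top2a* at 339 ± 35.4, and *Mki67* at 267 ± 36.9 TPM (SD, n = 4). *Ccnd2*, at 215 ± 24.4 TPM, was the most abundant of the D-type cyclins, above *Ccnd3* at 74.6 ± 4.61 and *Ccnd1* at 33.5 ± 6.81 TPM, in each library. All 19 measured genes of this list had a mean TPM of at least 1, and their sum was among the steadiest, from 3295 to 3526 TPM.

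Of the 30 cytokine receptors on the list, *Flt3* and *Il7r* came first, followed by *Ifngr1* at 188 ± 27.3 and *Il18r1* at 151 ± 27.9 TPM. The common gamma chain *Il2rg*, which pairs with IL7Rα, was at 117, 136, 124, and 149 TPM, below *Il7r* in every library. Of its kinases, *Jak1* had a mean of 202 ± 17.6 and *Jak3* of 34.1 ± 3.62 TPM, and of the transducers *Stat5b* had 81.5 ± 7.26 and *Stat5a* 28.3 ± 2.04 TPM (SD, n = 4). *Csf2rb*, the beta chain shared by the IL-3, IL-5, and GM-CSF receptors, was at 269 TPM in WT-6 and between 85.4 and 91.7 TPM in the other libraries. In contrast, *Epor*, the erythropoietin receptor, was below 0.7 TPM in every library. Of these receptors, 28 had a mean TPM of at least 1, with *Il9r* and *Epor* below. For homing, *Cxcr4*, the receptor that retains cells in the marrow, was at 616, 431, 371, and 357 TPM. *Ccr9*, which guides progenitors to the thymus, was at 43.5, 50.1, 68.4, and 77.3 TPM, and *Ccr7* was at 36.6, 84.4, 41.9, and 44.8 TPM. *Ccr10* and *Ackr3* had means of 0.284 and 0.0644 TPM.

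Among the targets of the lineage antibodies and the genes of other cell types and tissues, some were at or near 0 and others were not. The lineage antibodies used in the sort recognize CD3, Gr-1, B220, Ter-119, and CD11b. *Cd3e*, *Cd3d*, *Cd3g*, and *Ly6g* had means of 0.243, 1.65, 4.25, and 1.04 TPM, *Itgam* (CD11b) was at 15.9, 18.8, 9.69, and 12.5 TPM, and *Ly6c2*, one of the genes seen by the Gr-1 antibody, at 16.0, 14.2, 12.1, and 24.7 TPM. *Ptprc*, at 138 ± 5.12 TPM (SD, n = 4), encodes all CD45 forms, so that a gene-level value does not speak to the B220 epitope. Genes of liver, muscle, neurons, epithelium, kidney, lung, germ cells, stroma, and vessels were 24 in number. Of these, 13 were at 0 in all 4 libraries, including *Alb*, *Ins2*, *Snap25*, and *Sftpc*, and 7 (29.2%) reached a mean TPM of 1. That share was 30.6% over all genes and 57.7% over the genes annotated as protein-coding. The highest of the 24 was *Pecam1* at 132 ± 16.0 TPM, an adhesion molecule that blood cells also carry. Of 16 monocyte and macrophage genes, 9 had a mean TPM of at least 1, with *Lyz2*, a lysozyme, at 119, 271, 235, and 242 TPM and *Ccr2*, a chemokine receptor, at 102, 45.1, 64.8, and 79.0 TPM, while *Cd14*, *Marco*, and *Ms4a7* were at 0 in every library. Of 16 genes of type 2 innate lymphoid cells, 11 had a mean TPM of at least 1, led by *Il17rb* at 47.1 ± 2.25 TPM (SD, n = 4), while *Areg* was at 0. *Ddx3y* and *Eif2s3y*, genes of the Y chromosome, had means of 125 and 105 TPM, and *Xist* was at or below 0.238 TPM in each library, and the labels give all 4 mice as male. Of 22 immediate early genes, which rise when tissue is handled, 17 had a mean TPM of at least 1, led by *Btg1* at 81.8 and *Btg2* at 80.1 TPM, with *Fos* at 10.7 ± 6.82 and *Egr1* at 3.32 ± 0.581 TPM (SD, n = 4).

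**Figure D3:**
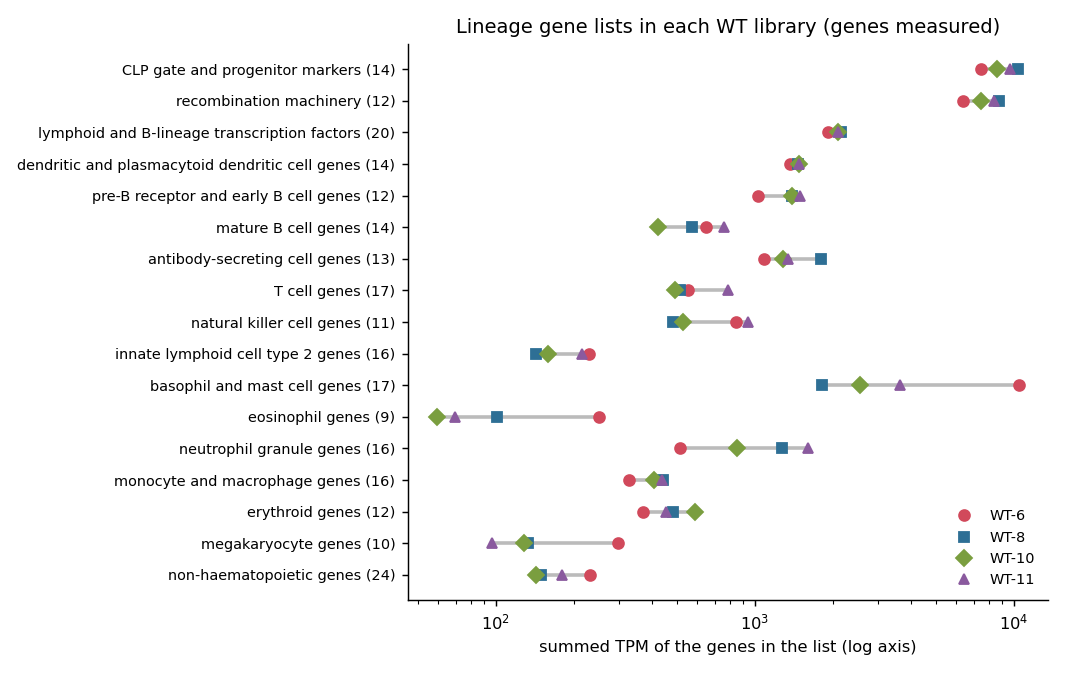
Summed TPM of 17 gene lists (vertical, with the number of genes measured) in WT-6, WT-8, WT-10, and WT-11 (horizontal, log axis), 1 symbol per library, with a gray line from the lowest to the highest. The gate markers run from 7446 to 10368 TPM, while the basophil and mast cell list runs from 1811 TPM in WT-8 to 10516 TPM in WT-6 and the neutrophil granule list from 516 TPM in WT-6 to 1602 TPM in WT-11.

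Transcripts of granulocyte programs were also present, and the basophil and mast cell list had the highest summed level of them in each library. *Prss34*, a basophil protease, was at 4026 TPM in WT-6, 448 in WT-8, 834 in WT-10, and 1315 in WT-11. *Mcpt8*, a protease that marks basophils, was at 2707, 207, 385, and 760 TPM. *Cpa3*, a carboxypeptidase of basophils and mast cells, was at 826, 191, 262, and 344 TPM. WT-6 was the highest library for all 3. The IgE receptor chains *Fcer1a* and *Ms4a2* were at 784, 112, 155, and 170 TPM and at 524, 74.0, 126, and 154 TPM, and *Gata2*, a factor that basophils and mast cells need, at 178, 20.8, 34.8, and 37.9 TPM. In WT-6 the level was 6.01 times the mean of the other libraries for *Mcpt8*, 5.38 times for *Fcer1a*, 5.73 times for *Gata2*, 4.65 times for *Prss34*, and 3.11 times for *Cpa3*. WT-6 was the highest library for 13 of 13 genes of the basophil and mast cell list at a mean TPM of at least 1, where it was the highest for 21.0% of all such genes, and WT-8 was the lowest for 11 of them, where it was the lowest for 33.7% of all such genes. The defining genes of connective tissue mast cells, *Mcpt4*, *Cma1*, and *Tpsab1*, were at 0 in all 4 libraries, and *Tpsb2* had 0.603 TPM in WT-11 alone. The list summed to 10516, 1811, 2558, and 3630 TPM, a mean of 4629 ± 3995 (SD, n = 4) and, without WT-6, of 2666 ± 915 (SD, n = 3).

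The promoters of 5 of these genes are shown because they encode the basophil proteins just described, each highest in WT-6. GATA sequences were looked for because *Gata2* is on the same list, and no relation of *Gata2* to these genes was tested. The 250 bases before the annotated start were taken from RefSeq (GRCm38.p6) and are written 5′ to 3′ on the strand of the gene, with capitals marking AGATAA or TGATAA, or either of them ending in G, on either strand.
*Mcpt8*, chr14:56085198-56085447, minus strand: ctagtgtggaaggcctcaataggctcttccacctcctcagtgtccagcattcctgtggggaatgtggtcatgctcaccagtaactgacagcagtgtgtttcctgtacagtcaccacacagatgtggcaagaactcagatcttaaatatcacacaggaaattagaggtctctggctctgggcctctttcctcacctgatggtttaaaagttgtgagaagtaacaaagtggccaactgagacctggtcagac
*Prss34*, chr17:25298144-25298393, plus strand: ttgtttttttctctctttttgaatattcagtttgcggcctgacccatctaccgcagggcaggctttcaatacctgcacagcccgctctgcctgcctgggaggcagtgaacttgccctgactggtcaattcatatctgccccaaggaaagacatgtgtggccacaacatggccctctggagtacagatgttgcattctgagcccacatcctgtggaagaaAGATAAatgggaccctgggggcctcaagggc
*Cpa3*, chr3:20242182-20242431, minus strand: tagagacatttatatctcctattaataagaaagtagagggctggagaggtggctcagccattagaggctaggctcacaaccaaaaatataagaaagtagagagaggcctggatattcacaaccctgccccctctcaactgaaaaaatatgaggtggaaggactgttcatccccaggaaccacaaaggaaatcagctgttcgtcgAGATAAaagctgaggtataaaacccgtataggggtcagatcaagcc
*Ms4a2*, chr19:11623720-11623969, minus strand: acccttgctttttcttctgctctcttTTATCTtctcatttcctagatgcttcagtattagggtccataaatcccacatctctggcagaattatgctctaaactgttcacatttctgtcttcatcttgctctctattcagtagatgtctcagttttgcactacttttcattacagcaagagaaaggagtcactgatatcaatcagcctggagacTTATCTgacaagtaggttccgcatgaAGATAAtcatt
*Fcer1a*, chr1:173227230-173227479, minus strand: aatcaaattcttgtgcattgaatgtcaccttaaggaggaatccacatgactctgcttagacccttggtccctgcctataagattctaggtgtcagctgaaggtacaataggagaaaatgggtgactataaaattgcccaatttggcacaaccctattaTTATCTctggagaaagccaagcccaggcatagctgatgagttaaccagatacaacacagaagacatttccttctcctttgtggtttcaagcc
*Prss34*, *Cpa3*, and *Fcer1a* each hold 1 such match, beginning 31, 46, and 92 bases before the start, *Ms4a2* holds 3, and *Mcpt8* holds none in this window. Of the 32851 promoter windows of this length, 26.5% hold at least 1 match. Of the 15 genes of the basophil and mast cell list with a window, 10 hold a match. These include *Mcpt4* and *Cma1*, which were not detected in any library. A match is a description of the sequence, and binding was not measured here.

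Neutrophil granule genes were mostly lowest in WT-6. *S100a9*, a calcium-binding protein of neutrophils, was at 0.403 TPM in WT-6, from 1 read, and at 498, 273, and 596 TPM in WT-8, WT-10, and WT-11. *S100a8*, its partner, was at 0.909 TPM in WT-6, from 3 reads, and at 223, 145, and 301 TPM in the others. *Ngp* and *Camp*, granule proteins, had no read in WT-6, where 3 reads on a gene of 1 kb would be 0.631 TPM, and *Ngp* was at 120, 60.5, and 110 TPM in the other libraries. WT-6 was the lowest library for 12 of 16 genes of this list, against 23.3% of all genes at a mean TPM of at least 1. The primary granule genes *Mpo* and *Ctsg*, which are made earlier in the myeloid path, did not share this order, at 260, 181, 171, and 193 TPM and at 225, 84.0, 77.7, and 137 TPM. The list summed to 516, 1271, 855, and 1602 TPM, a mean of 1061 ± 475 (SD, n = 4) and, without WT-6, of 1242 ± 374 (SD, n = 3). *Ly6g*, the target of the Gr-1 antibody on neutrophils, was at 0, 3.02, 0, and 1.15 TPM. The part of other cells in these levels was not tested.

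Megakaryocyte genes summed to 297, 133, 128, and 97.0 TPM, with *Itga2b* at 92.4 TPM in WT-6 and between 23.4 and 29.0 TPM elsewhere, and 9 eosinophil genes summed to 250, 101, 59.3, and 69.8 TPM. Their means were 164 and 120 TPM over the 4 libraries and 119 and 76.6 TPM without WT-6. Erythroid genes summed to 369, 482, 589, and 454 TPM, most of it *Tfrc*, the transferrin receptor of all dividing cells, at 294 ± 39.5 TPM, and *Car2* at 107 ± 19.9 TPM (SD, n = 4). The globin gene *Hbb-b1* was at 11.7, 46.5, 147, and 44.6 TPM. Of plasmacytoid dendritic cell genes, *Siglech* was at 87.9, 115, 123, and 95.2 TPM and *Bst2* at 146, 130, 190, and 138 TPM, with CVs of 15.7% and 17.6%, and the list of 14 dendritic cell genes summed to between 1369 and 1484 TPM.

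Immunoglobulin variable genes that reached 50 TPM in a library were mostly at 0 in at least 1 other. Of 90 variable genes with a name, 31 reached 50 TPM in at least 1 library, and 17 of these did so in a single library, 9 in 2, 5 in 3, and none in all 4. Of 4426 named genes outside immunoglobulin loci that reached 50 TPM in any library, 73.1% did so in all 4. Of the 31 variable genes, 28 (90.3%) were at 0 in at least 1 other library, against 0.791% of the 4426. In both sets a gene could pass the level through its highest library alone. The sets were not matched for level or length. *Igkv8-21* was at 767 TPM in WT-8, at 0.551 TPM in WT-6, and at 0 in the other libraries. *Ighv6-6* was at 1296 TPM in WT-11, 147 TPM in WT-10, and 0 in WT-6 and WT-8, and *Igkv12-46* was at 590 TPM in WT-6 and 200 TPM in WT-11 only. The summed level of the 90 genes differed far less, at 3216 TPM in WT-6, 2840 in WT-8, 2906 in WT-10, and 3845 in WT-11. In WT-8 the 5 most abundant variable genes held 87.5% of that sum and 17 were above 0, whereas in WT-6 they held 51.5% and 42 were above 0. The switched constant gene *Ighg1* was at 198 TPM in WT-10 and at or below 4.83 TPM elsewhere, and 6 of the 12 constant genes listed were matched by name and analysed here. Of the plasma cell genes, *Sdc1* was at 50.8, 91.8, 51.4, and 54.6 TPM and *Mzb1* at 46.0, 87.7, 45.5, and 59.1 TPM, both highest in WT-8, as was *Jchain*. *Prdm1*, the factor of antibody-secreting cells, was at 3.18, 0.362, 3.05, and 3.36 TPM. WT-8 was the highest library for 6 of the 13 measured genes of the antibody-secreting cell list and the lowest for 5. Among all genes at a mean TPM of at least 1, it was the highest for 32.8% and the lowest for 33.7%. Variable genes are close copies of each other, so reads may have been shared out between them, and genes without a name were left out of these counts.

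**Figure D4:**
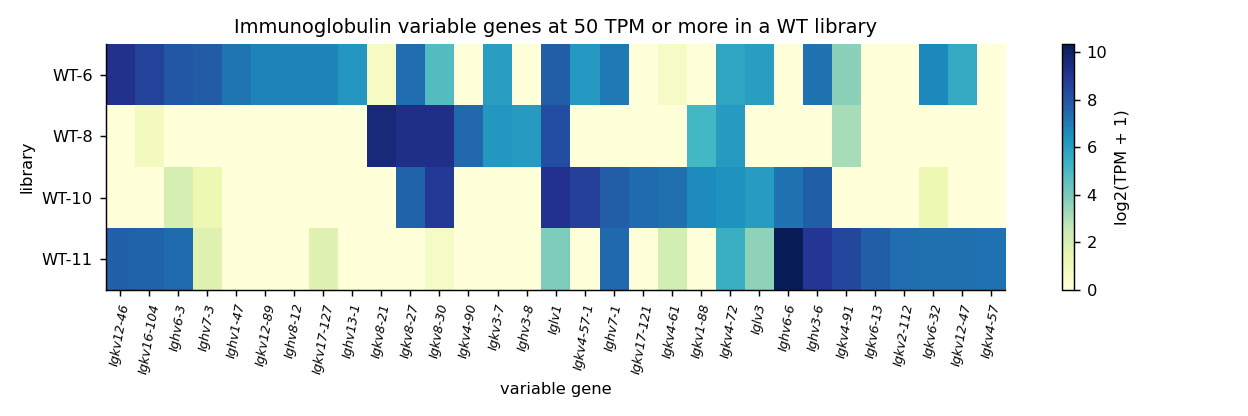
log2(TPM + 1) of the 31 named immunoglobulin variable genes that reached 50 TPM in a WT library (horizontal), in WT-6, WT-8, WT-10, and WT-11 (vertical), ordered by the library with the highest value. Dark cells mostly stand in 1 or 2 rows of a column, and no gene reached 50 TPM in all 4 libraries.

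The 10 most abundant annotated lncRNAs ranged from *AI662270* at 658 ± 54.6 TPM to *1110038B12Rik* at 116 ± 27.5 TPM, with *Gas5* at 361, 403, 469, and 394 TPM and *Malat1* at 207, 181, 318, and 213 TPM. *Firre* (chrX:50563120-50635321) was at 26.4, 31.6, 25.2, and 30.2 TPM in WT-6, WT-8, WT-10, and WT-11, a mean of 28.4 ± 3.05 (SD, n = 4) from 917 to 1217 reads. It ranked 33rd of 1769 annotated lncRNAs and 6157th of all genes, close to *Ebf1* and *Meis1*, and above 57.8% of the genes at a mean TPM of at least 1. Ranks among lncRNAs cover genes matched by name to the annotation, and 11 of the 22 lncRNAs listed for this work were matched.

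The 4 libraries agreed within 2-fold for most genes. Over the 14582 genes at a mean TPM of at least 1, Spearman's correlation of TPM between 2 libraries lay between 0.917 and 0.950, and Pearson's correlation of log2(TPM + 1) between 0.889 and 0.934. These correlations are across genes, which are not independent replicates. The lowest 3 of the 6 pairs by either measure all included WT-8, and WT-6 with WT-11 was the highest. The numbers in the library titles fall into 2 ranges, one with WT-8 and WT-11 and one with WT-6 and WT-10, and neither of these pairs had the highest correlation. By either measure, WT-6 with WT-10 was the next highest pair (Spearman 0.942). Of the pairs with WT-8, that with WT-11 had the highest Spearman correlation (0.921) and that with WT-6 the highest Pearson correlation (0.894). The median CV was 13.3% over the 9636 genes at a mean TPM of at least 10, where read counting alone would give a median of 3.79%, and 82.5% of these genes had a CV below 25%. The median difference between 2 libraries over these genes lay between 0.16 and 0.24 on the log2 scale, and the 4 were counted as separate samples. Between 2 libraries, 3.72% to 7.27% of these genes differed by more than 2-fold, as did 13.6% to 22.4% of the 14582 genes. The steadiest of 3970 genes at a mean TPM of at least 50 were *Drg1* (CV 0.569%, 84.4 TPM), *Pag1* (1.11%, 78.5 TPM), and *Bcas2* (1.11%, 61.0 TPM). Among common reference genes, *Pgk1* and *Ywhaz* had CVs of 3.81% and 4.13%, and *Gapdh* and *Actb* 10.1% and 11.2%.

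Of those 3970 genes, 43 had a CV above 100%, of which 16 were immunoglobulin genes, 20 had no name, and 7 were other named genes, led by *Mcpt8* (114%) and *Gata2* (109%). Genes more than 2-fold above or below all other libraries were counted among 9027 named genes outside immunoglobulin loci of at least 300 bases and a mean TPM of at least 10. That mean covers all libraries, so a gene could pass the level through its high library alone. In WT-6, 71 were above and 14 were below. In WT-8, 24 were above and 93 below, in WT-10 7 and 24, and in WT-11 4 and 7. Those above in WT-6 included *Ibsp*, a bone matrix protein, *Cxcl12*, a chemokine of marrow stroma, and *Il6*, a cytokine on the basophil and mast cell list, at 35.4, 73.6, and 62.4 TPM there and below 10 TPM in each other library. *Lepr*, a receptor of marrow stroma, was at 9.82 TPM in WT-6 and below 0.6 TPM elsewhere. In WT-10, *Mx1*, annotated as a pseudogene, and *Isg15*, both induced by interferon, were at 22.5 and 61.2 TPM, against at most 9.51 and 30.5 TPM in the other libraries. The genes named in these last sentences were chosen after their values were seen.

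**Figure D5:**
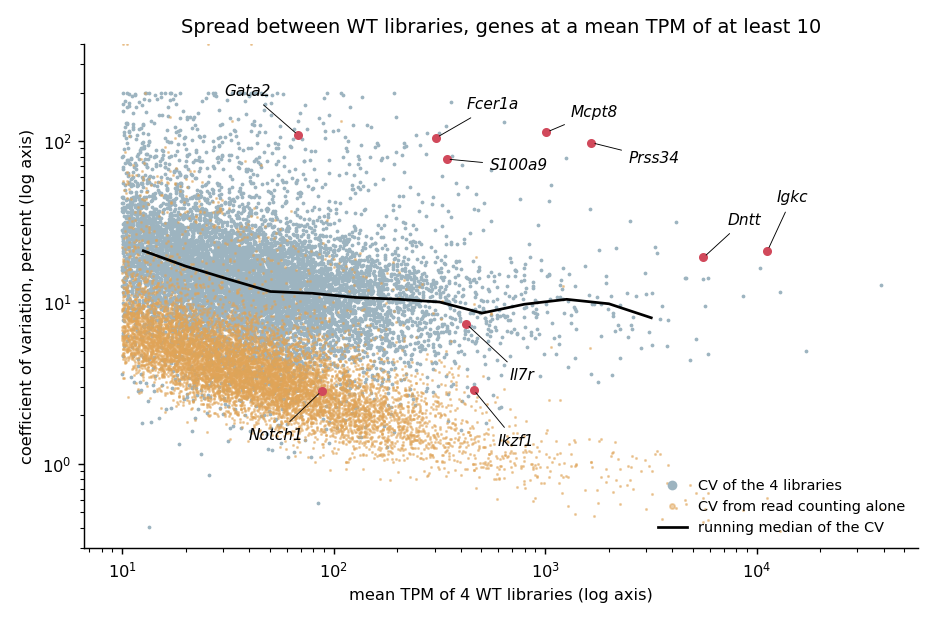
CV of the 4 WT libraries in percent (vertical, log axis) against mean TPM (horizontal, log axis) for 9636 genes at a mean TPM of at least 10, with the running median as a line, the CV that read counting alone would give as orange points, and 10 genes marked. Most genes lie between 5% and 30%, *Ikzf1* and *Notch1* below 3%, and *Mcpt8*, *Gata2*, *Fcer1a*, *Prss34*, and *S100a9* far above genes of like abundance.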

How the data were processed

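The cells went from the sorter straight into TRIzol. Paired-end sequencing was done on poly(A)+ libraries from the CATS RNA-seq kit v2. Per the labels and the study's methods, the authors trimmed the reads with cutadapt, mapped them to mm10 with TopHat 2.1.1 and the Gencode vM9 annotation, and counted them per gene with FeatureCounts 1.6.2. The authors deposited TPM, which sum to 1000000 in each library, for 47643 genes. How strand, shared reads, and gene length were handled is not given in the sources used here.

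Only the 4 WT columns were described. Reads were recovered from the spacing of TPM values over the 12 libraries: 99.99% of values above 0 lay within 0.02 of a whole read. For *mt-Co1* and *mt-Cytb* the annotated length was used. Mean, SD, CV, and rank were computed with pandas 2.3.3, numpy 2.4.6, and scipy 1.17.1 under Python 3.11.15, and figures drawn with matplotlib 3.10.9, and the recovery of reads was tested on simulated data. Reads are not independent molecules, so floors and counting CVs cover counting error only. No groups were compared, and the only test was Dixon's ratio for a library far from the other 3.

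Gene names were found for 32799 identifiers, 2606 of them updated through RefSeq synonyms, and coordinates are from RefSeq GRCm38.p6. Of 448 genes on 31 lists, 423 were matched. The libraries, the lists, and the members were chosen with earlier results of these data known. Genes were named by a rule: the 5 markers, the 25 most abundant genes, in each list the 4 most abundant members and those below a mean of 0.5 TPM, the 15 highest and 10 lowest CVs at a mean TPM of at least 50, the 10 most abundant lncRNAs, and *Firre*. Other list members are given as examples, and some genes the rule selects are not reported here. Alternatives were other thresholds, the median, rescaling by median ratios, TPM without 3 gene classes, reads in place of TPM, thinned reads, and each library left out.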

Additional observations from a re-analysis of the deposited data

Results flagged for a closer look

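Values that lay far from the other 3 libraries were looked for by the gap to the nearest library over the range, read against Dixon's 95% limit for 4 samples, which chance exceeds in about 1 in 20 groups. It was exceeded by 2 of 31 gene lists, 1 of 9 library measures, and 12 of 151 named genes at a mean TPM of at least 1. For lists and named genes these shares lie near 1 in 20, so a flag alone does not set a library apart. The gap is taken over the range, so a small difference can also be flagged. Genes named only for a high CV were not among the 151. The summed level of myeloid and erythroid transcription factors was 485 TPM in WT-6, with *Gata2* at 178 TPM and *Cebpa* at 120 TPM the most abundant there, and between 218 and 234 TPM in the others. The mean of this sum was 292 TPM over the 4 libraries and 227 TPM without WT-6. The sum of dendritic cell genes was lowest in WT-6, at 1369 TPM, against 1467 to 1484 TPM in the others. In WT-8, 183 genes at a mean TPM of at least 10, unnamed, short, and immunoglobulin genes included, were more than 2-fold below all others. WT-6 was also flagged as the highest library for *Rps26* (4387 TPM), *Ppbp* (105 TPM), *Itga2b* (92.4 TPM), and *Cxcl12* (73.6 TPM), and as the lowest for *Erg* (108 TPM). WT-10 was flagged as the highest library for *mt-Nd2* (6757 TPM), *Irf8* (280 TPM), *AI504432* (184 TPM), *Eif2s3y* (121 TPM), and *Ighg1* (198 TPM), and as the lowest for *Stat6* (73.7 TPM). For *AI504432* the gap was small, with 163 to 167 TPM in the other libraries.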

How the results depend on the processing

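Of 105 alternatives for the main measures, 84 left the value within the spread of the libraries or, for counts, within 1.5 times. Part of the 84 could not have come out otherwise. Leaving out a single library, or taking the median, cannot move a mean share or mean TPM by a full SD. A pseudocount does not change ranks, and so not Spearman's correlation. The 84 is therefore not a measure of how robust the values are. Without immunoglobulin, ribosomal protein, and mitochondrial genes, the 100 most abundant genes held 16.6% of TPM, and the markers rose in proportion to 567 (*Il7r*), 762 (*Flt3*), 94.5 (*Kit*), 234 (*Rag1*), and 7494 TPM (*Dntt*). As a share of reads, the 100 most abundant genes held 15.6%, ribosomal protein genes 5.51%, mitochondrial genes 2.88%, and immunoglobulin genes 0.501%, and 12 of the 20 genes most abundant by TPM stayed in the first 20. The lowest Spearman correlation was 0.876 with no filter. The lowest Pearson correlation was 0.799 and 0.934 with pseudocounts of 0.1 and 5, 0.963 with no filter, and 0.860 at a mean TPM of at least 5. The median CV was 18.8% at a mean TPM of at least 1 and 10.9% at 50. With each library left out in turn, the lowest Spearman correlation ranged from 0.915 to 0.936, the lowest Pearson correlation from 0.884 to 0.912, and the median CV from 10.9% to 13.5%, the best agreement in each coming without WT-8. The count of list members at a mean TPM of at least 5 fell by over 1.5 times for 7 of 31 lists, while 0.5 TPM and the median moved none that far. Thinned to 10990541 reads, chosen after seeing the data for the agreement measures, WT-8 still had the fewest genes above 0 (15472, against 17048 to 19256), and the cause was not tested. No paired analysis was possible because no groups were compared.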
